A study of Homo sapiens with 23 samples.

Results

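The genes described are the 33 that make cholesterol, take it up and move it, sense it and export it, chosen by symbol from the 60605 gene identifiers of a count table. The rule names symbols and uses no measured value, but the members were chosen with earlier results of these data known. The study had already reported cholesterol homeostasis genes as enriched among those activated in this time course. Counts of calls among the members are therefore no independent test. All 33 passed the low-count filter that kept 26057 genes. The table holds precision run-on sequencing (PRO-seq) libraries, in which RNA polymerases engaged on DNA add a labelled nucleotide in permeabilized cells, so that reads count polymerases in the act of transcription. The cells were T47D, a breast cancer line of luminal type that expresses the estrogen receptor, and every library came from Clone 28, a single clone with a degron tag at the endogenous locus of TRPS1, a GATA-family repressor. Cells received dTAG-13 and dTAG-V-1, ligands that recruit ubiquitin ligases to the tag, at 50 nM each for 0.5, 1, 2, 4 or 24 h, and the control cells of the same clone received 0.1% DMSO for 24 h. Each group had 4 libraries (n = 4), except 24 h, which had 3 (n = 3, replicates 2, 3 and 4).

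Cholesterol is built from acetyl-CoA through the mevalonate steps, which make isoprenoid units, the squalene steps, which join and close them into lanosterol, and the sterol steps, which trim lanosterol to cholesterol. When membranes of the endoplasmic reticulum hold little sterol, the escort protein SCAP carries the transcription factor SREBP2 to the Golgi, where it is cut and released to the nucleus to activate these genes, and INSIG proteins hold the complex back when sterol is plentiful. Oxysterols activate the LXR nuclear receptors, which turn on cholesterol efflux genes. Luminal breast cancer cells make cholesterol themselves and also import it from lipoproteins.

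Total counts lay between 4408544 and 17571616 per library, with a median of 9768427. The 4 h library of replicate 1 stood apart, with the lowest total and the highest mitochondrial share, 6.5% against 1.73% to 4.24% in the other 22. Levels are given as counts scaled to a common library size (CPM), adjusted for library composition and listed in the order of the replicate numbers. A CPM value is a share of a library, so fewer polymerases per cell and a larger total elsewhere cannot be told apart. All 7 markers of luminal breast epithelium passed the filter, with summed levels between 3250 and 3750 CPM. ESR1 made up most of this sum, with a mean of 2440 CPM, and KRT18 was the lowest of the 7 at 61.2 CPM. The sums are not scaled for gene length, and the marker lists differ in size. The summed markers of basal or mesenchymal cells reached 3.61 to 6.04 CPM, those of fibroblasts 10.1 to 16.2, those of leukocytes 10.9 to 18.2 and those of endothelium 4.06 to 6.58. TRPS1 itself is removed as a protein, so its count is no check of the treatment. It measured 9171, 7997, 10160 and 9359 CPM in DMSO and 10770, 9821, 11030 and 10990 CPM at 4 h.

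The density of polymerase over the members before TRPS1 loss differed widely between genes, given here as DMSO CPM per kb of annotated gene span. TM7SF2, a sterol reductase gene of 4.5 kb, had the highest density at 14.0 ± 1.38 CPM per kb (SD, n = 4). VPS51, on the same strand, overlaps 18 bases of TM7SF2, and whether polymerases running on from that neighbour add to its count was not tested. IDI1, which interconverts the isoprenoid units, followed at 6.41 ± 0.141, then the desaturase gene SC5D at 6.09 ± 0.365 and GGPS1 at 5.80 ± 0.214 CPM per kb. The place of GGPS1 is uncertain, because an unnamed gene on the same strand covers 92.9% of it. The SC5D libraries overlapped those of IDI1 and of GGPS1, which did not overlap each other, and FDPS, the farnesyl diphosphate synthase gene, lay lower at 4.23 ± 0.458. A middle group of densities ran from SQLE at 1.77 ± 0.108 to MYLIP at 2.44 ± 0.259 CPM per kb, and most neighbours in it overlapped. The lowest densities belonged to the efflux genes ABCG1, at 0.182 ± 0.0114, and ABCA1, at 0.0192 ± 0.00241 CPM per kb, which did not overlap each other or any other member.

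**Figure D1:**
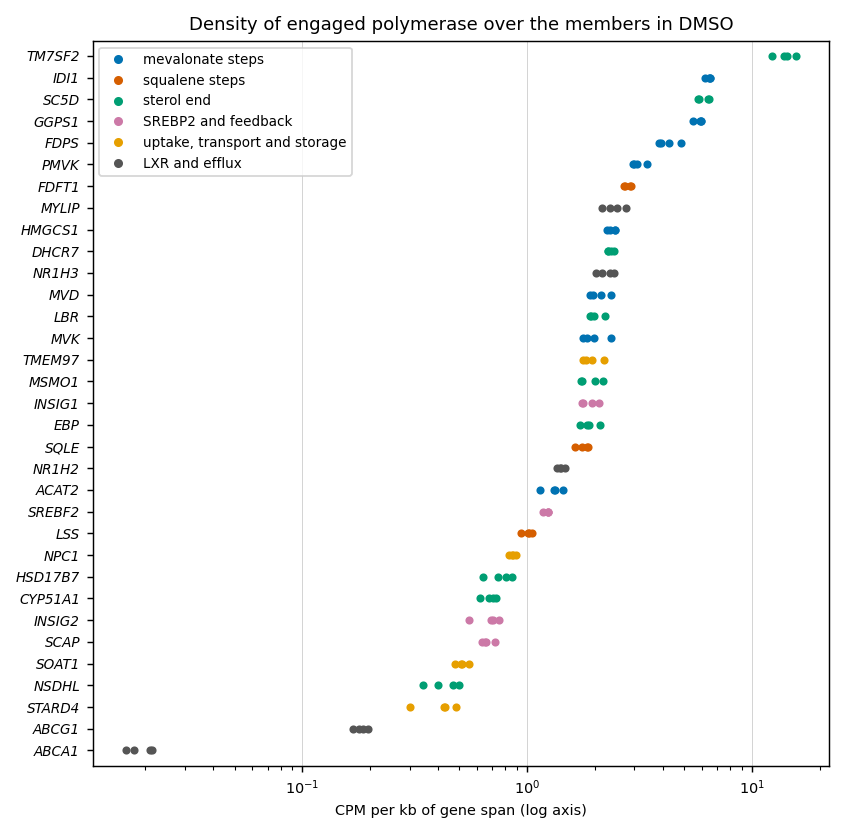
Density of engaged polymerase over each of the 33 members in the 4 DMSO libraries (points), as CPM per kb of gene span on a log axis, coloured by role. ABCA1 lies lowest, at a mean of 0.0192, and TM7SF2 highest, at 14.0 CPM per kb.

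Part of the synthesis pathway rose after TRPS1 depletion. At 2 h and again at 4 h, 2 of 8 mevalonate genes, 2 of 3 squalene genes, 2 of 9 genes of the sterol end and 2 of 4 genes of SREBP2 and its feedback were called higher than in DMSO. Of all genes, 0.733% were called at 2 h and 0.833% at 4 h, in either direction. With the replicate number as a block, the counts called higher in these lists were 4, 3, 5 and 2 at both times. The largest values at 4 h were 0.57 ± 0.10 on the log2 scale for INSIG1, of the feedback genes, and 0.51 ± 0.04 for HMGCS1, of the synthesis genes, and no member was called against DMSO at 24 h. A gene was called where its adjusted p (FDR) in edgeR's quasi-likelihood test was under 0.1, and members are read against the share of all 26057 genes called in the same contrast. Because replicates were harvested at separate times of the day, each contrast was also fitted with the replicate number as a block. Log2 fold changes are given with their standard error.

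At 0.5 h, 0 of 33 members were called, where 0.476% of all genes were. By edgeR 6 had an unadjusted p under 0.05, 5 of them lower, and DESeq2 called 1, SQLE. The shares of all genes with such an unadjusted p, or called by DESeq2, were not computed for any contrast. These 2 kinds of count are therefore not read as a result about the members. With the block 2 members fell, SQLE and DHCR7, where 2.48% of all genes were called. At 1 h, HMGCS1 alone rose without the block (1 of 33, with 1.25% of all genes called), and MSMO1 and SC5D joined it with the block (3 of 33, with 3.25% of all genes). By 2 h, 8 of 33 members had risen and 0 had fallen, against 0.733% of all genes called in either direction. With the block 14 rose and 1, ABCG1, fell, against 2.43% of all genes. By 4 h, 9 of 33 had risen and 0 had fallen, against 0.833% of all genes, and with the block 15 rose and ABCG1 fell, against 2.49%. Fits of only the groups compared kept 4 of 8 calls at 2 h and 2 of 9 at 4 h, and scaling by total counts alone kept 5 of 9 at 4 h.

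At 24 h, 0 of 33 members differed from DMSO by edgeR, with or without the block, while 0.863% of all genes were called without it and 2.65% with it. No member had an unadjusted p under 0.05 at 24 h, and DESeq2 also called 0. Between 0.5 h and 4 h, 12 of 33 members rose, against 0.871% of all genes called, and 15 rose with the block, against 4.15%. From 4 h to 24 h, 10 of 33 fell, against 0.453% of all genes called, and with the block 15 fell and ABCG1 rose, against 1.77%. The last pair of contrasts share the 4 h libraries and are not independent of each other. An F-test over 0.5 to 4 h in the 20 libraries from DMSO to 4 h called 12 of 33 members, against 1.33% of 25255 genes. With the block it called 15, against 4.6%.

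The median log2 fold change of the 33 members was -0.01 after 0.5 h, 0.18 after 2 h and 0.16 after 4 h, and -0.02 by 24 h, while the median of all genes was 0.01, 0.00, 0.01 and 0.00. By role at 4 h, the median was 0.21 for the 8 mevalonate genes, 0.35 for the 3 squalene genes, 0.23 for the 9 genes of the sterol end, 0.24 for the 4 genes of SREBP2 and its feedback, 0.14 for the 4 genes of uptake, transport and storage, and -0.02 for the 5 genes of LXR and efflux. Of the 12 members called over the time course, 7 had their highest mean at 4 h and 5 at 2 h. In the libraries to 24 h, 8 members had their highest mean at 24 h, and 5 of these were the LXR and efflux genes. No member was called at 24 h against DMSO, and the median log2 fold change of the 5 was 0.07. The 24 h means rest on 3 libraries, and the share of all genes highest at 24 h was not computed.

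**Figure D2:**
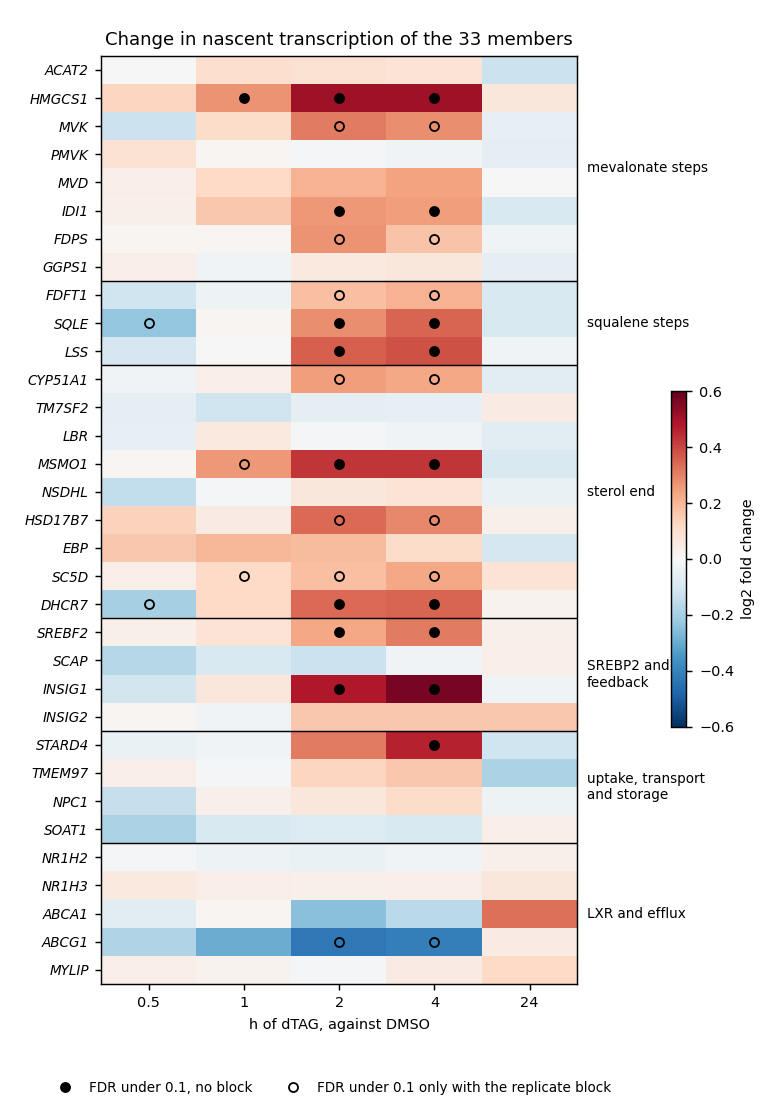
Log2 fold change of each of the 33 members (a line each, grouped by role) at 5 times of dTAG against DMSO, red for higher and blue for lower. Filled circles mark FDR under 0.1 without a block and open circles FDR under 0.1 with the replicate block only; 9 members carry a filled circle at 4 h and none at 24 h.

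The upstream sequences of the 4 largest called rises at 4 h in the fit of all libraries, with SREBF2 added after its motif match was seen, are shown because SREBP2 acts at such sites together with NF-Y. RefSeq promoters on GRCh38.p14 were matched for 29 of 33 members (not for ACAT2, FDFT1, SQLE and ABCG1), and the 250 bases before each start were searched on both strands. Capitals mark TCACNCCAC, a form of the sterol response element, and CCAAT, the NF-Y box; only bases outside the GENCODE gene span are printed.
INSIG1 (chr7:155297628-155297775, plus strand): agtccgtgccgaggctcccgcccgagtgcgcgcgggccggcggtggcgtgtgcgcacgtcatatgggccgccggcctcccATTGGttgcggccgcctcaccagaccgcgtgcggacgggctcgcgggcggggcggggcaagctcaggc
HMGCS1 (chr5:43313513-43313662, minus strand): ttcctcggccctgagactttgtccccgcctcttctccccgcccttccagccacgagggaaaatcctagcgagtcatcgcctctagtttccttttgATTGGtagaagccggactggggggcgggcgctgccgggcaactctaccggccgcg
STARD4 (chr5:111512591-111512785, minus strand): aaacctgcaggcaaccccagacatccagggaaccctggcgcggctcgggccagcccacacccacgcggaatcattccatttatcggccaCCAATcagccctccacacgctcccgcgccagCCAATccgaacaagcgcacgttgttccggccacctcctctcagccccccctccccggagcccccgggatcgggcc
MSMO1 (chr4:165327419-165327666, plus strand): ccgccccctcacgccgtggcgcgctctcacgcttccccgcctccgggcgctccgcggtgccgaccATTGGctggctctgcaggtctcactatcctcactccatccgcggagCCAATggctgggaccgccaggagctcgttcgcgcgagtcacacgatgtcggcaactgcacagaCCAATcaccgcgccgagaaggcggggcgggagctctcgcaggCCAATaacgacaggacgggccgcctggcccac
SREBF2 (chr22:41832855-41833104, plus strand): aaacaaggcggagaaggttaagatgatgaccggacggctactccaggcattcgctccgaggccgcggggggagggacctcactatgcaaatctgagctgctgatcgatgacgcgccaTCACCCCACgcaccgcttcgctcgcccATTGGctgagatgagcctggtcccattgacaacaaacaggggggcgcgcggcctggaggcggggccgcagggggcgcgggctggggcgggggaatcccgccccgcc
The sterol element TCACNCCAC lay in 1 of 29 members, SREBF2, and in 0.875% of 27305 promoters. CCAAT lay in 18 of 29 members and in 33% of all promoters. Among the members called over the time course, 8 of 10 with a promoter in the table held CCAAT, against 10 of 19 of the others. MSMO1 carried it 4 times in the bases shown. GATAA, the core that GATA factors recognise, lay in 5 of 29 members (FDPS, CYP51A1, LBR, EBP and STARD4) and in 21% of promoters. A pair of direct AGGTCA repeats 4 bases apart, the LXR element, lay in 0 of 29 and in 0.0146% of promoters. These matches are letters in a window and no record of binding.

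Among the mevalonate genes, HMGCS1 (ENSG00000112972, chr5:43287470-43313512, minus strand on hg38), the synthase that makes HMG-CoA, was the member edgeR called earliest without the block, at 1 h. With the block SQLE and DHCR7 were called lower at 0.5 h, and DESeq2 called SQLE at that time. HMGCS1 measured 64.3, 59, 63.7 and 60.9 CPM in DMSO, 67.7, 65.4, 70.6 and 67.4 at 0.5 h, 77.5, 75.2, 71.1 and 74.8 at 1 h, 90.5, 90.2, 88.2 and 85.2 at 2 h, 89.8, 88.1, 92 and 83.5 at 4 h and 61.9, 68.7 and 64.8 at 24 h. Every library from 0.5 h to 4 h lay above every DMSO library, and the 24 h libraries overlapped DMSO. The log2 fold change against DMSO was 0.13 ± 0.04 at 0.5 h (edgeR adjusted p = 0.344) and 0.27 ± 0.04 at 1 h (0.00353). It reached 0.51 ± 0.04 at 2 h (2.7e-06) and 0.51 ± 0.04 at 4 h (1.76e-06), and stood at 0.07 ± 0.05 at 24 h (0.841). Its 1 h call was lost without replicate 4 (adjusted p = 0.115), and its 2 h and 4 h calls held without each replicate in turn. Here and below, fits that leave out a replicate have no block and fewer libraries. A call lost in them does not tell dependence on that replicate from the smaller number of libraries.

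IDI1 (ENSG00000067064, chr10:1039152-1049119, minus strand), the isopentenyl diphosphate isomerase gene, changed less. Its levels were 64.6, 64.8, 64.3 and 61.8 CPM in DMSO, 70.3, 61.6, 64.6 and 64.8 at 0.5 h, 71.8, 70.9, 69.6 and 73.1 at 1 h, 70, 81.5, 77.3 and 76.6 at 2 h, 71.2, 79.8, 79.2 and 72.9 at 4 h and 61.1, 60.6 and 58.9 at 24 h. All libraries at 1, 2 and 4 h lay above all DMSO libraries, and all 24 h libraries lay just below them. The rise was 0.26 ± 0.05 at 2 h (edgeR adjusted p = 0.00992) and 0.25 ± 0.05 at 4 h (0.0129), and the 24 h value was -0.09 ± 0.05 and not called. The 2 h call was lost without replicate 2, 3 or 4 (adjusted p = 0.182, 0.273 and 0.383), and the 4 h call without the same replicates (0.164, 0.41 and 0.26).

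MVK (ENSG00000110921, chr12:109573255-109598125, plus strand), mevalonate kinase, spread more between replicates. It measured 49.2, 59, 44 and 45.9 CPM in DMSO, 38.7, 50.2, 47.5 and 44 at 0.5 h, 57.1, 51, 55 and 50.8 at 1 h, 57.7, 70.4, 59.8 and 57.3 at 2 h, 55.8, 62.7, 60.3 and 61.1 at 4 h and 47, 46.6 and 49.4 at 24 h. Replicate 2 was the highest library in DMSO, and the 2 h and 4 h libraries overlapped DMSO through it. Each replicate was higher at 2 h and at 4 h than in its own DMSO library. Without the block the contrast with DMSO gave 0.31 ± 0.09 at 2 h (edgeR adjusted p = 0.158) and 0.28 ± 0.09 at 4 h (0.232). With it the values were 0.32 ± 0.07 (0.0173) and 0.30 ± 0.07 (0.0354). MVK was called over the time course without the block (mean log2 fold change 0.15, adjusted p = 0.0467), though not without replicate 3 (0.07, 0.551) or replicate 4 (0.11, 0.674).

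FDPS, which makes farnesyl diphosphate, averaged 50.4 ± 5.46 CPM in DMSO, 60.7 ± 3.51 at 2 h and 56.6 ± 5.19 at 4 h (SD, n = 4). Its contrast at 2 h was 0.27 ± 0.07 without the block (edgeR adjusted p = 0.115) and 0.27 ± 0.05 with it (0.00143), and at 4 h 0.17 ± 0.07 (0.516) and 0.18 ± 0.05 (0.0522). The other 4 mevalonate genes were not called against DMSO in either fit. MVD, the mevalonate diphosphate decarboxylase gene, had 0.24 ± 0.11 at 4 h (edgeR adjusted p = 0.624, 0.133 with the block). ACAT2, the acetoacetyl-CoA thiolase gene at the pathway's entry, had 0.08 ± 0.08, the kinase gene PMVK -0.02 ± 0.08 and the geranylgeranyl diphosphate synthase gene GGPS1 0.07 ± 0.04 at 4 h. GGPS1 was lower at 24 h than at 4 h with the block (-0.15 ± 0.04, adjusted p = 0.0474). An unnamed gene on the same strand covers 92.9% of GGPS1, so its count is uncertain.

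The 3 squalene genes had log2 fold changes between -0.23 and -0.10 at 0.5 h and between 0.21 and 0.38 at 4 h. SQLE (ENSG00000104549, chr8:124998497-125022283, plus strand) encodes squalene epoxidase, which adds the oxygen needed for ring closure. Its levels were 44.5, 43.8, 41.7 and 38.8 CPM in DMSO, 39, 39, 32.8 and 33.6 at 0.5 h, 45.2, 43.1, 41.8 and 39.9 at 1 h, 52.3, 51.5, 50.8 and 49.9 at 2 h, 58.4, 55.8, 53.1 and 48.6 at 4 h and 38.8, 41.2 and 38.9 at 24 h. In all 4 replicates the 0.5 h library was below its own DMSO library, although the groups overlapped, and all libraries at 2 h and 4 h were above all in DMSO. SQLE gave -0.23 ± 0.06 at 0.5 h (edgeR adjusted p = 0.192, and 0.00946 with the block), 0.28 ± 0.06 at 2 h (0.0523) and 0.35 ± 0.06 at 4 h (0.00665). From 0.5 h to 4 h it rose by 0.58 ± 0.06 (9.58e-05). The 2 h call was lost without replicate 2, 3 or 4 (adjusted p = 0.276, 0.425 and 0.375) and the 4 h call without replicate 2 or 3 (0.116 and 0.159).

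LSS (ENSG00000160285, chr21:46188141-46228824, minus strand), lanosterol synthase, closes the sterol rings. It measured 41.4, 40.9, 38.1 and 42.7 CPM in DMSO, 38.7, 38.9, 37 and 37.9 at 0.5 h, 39.9, 41.3, 39.1 and 43 at 1 h, 54.1, 57.9, 51.6 and 45.4 at 2 h, 58.2, 57, 45.8 and 51.7 at 4 h and 40, 37.4 and 42.9 at 24 h. The 2 h and 4 h libraries were all above DMSO, with 4 h replicate 1 the highest of any, and the 24 h libraries overlapped DMSO. The rise was 0.36 ± 0.07 at 2 h (edgeR adjusted p = 0.0193) and 0.38 ± 0.07 at 4 h (0.0119), and without the 4 h library of replicate 1 it was 0.33 at 4 h (0.0461). The 2 h call was lost without replicate 1, 2 or 3 (0.118, 0.34 and 0.181) and the 4 h call without replicate 1 or 2 (0.128 and 0.213).

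FDFT1 (ENSG00000079459, chr8:11795573-11839395, plus strand), squalene synthase, commits isoprenoids to sterol. It had 126, 126, 119 and 118 CPM in DMSO, 118, 122, 106 and 105 at 0.5 h, 125, 125, 114 and 116 at 1 h, 140.0, 150.2, 138 and 128 at 2 h, 146, 151, 139 and 131 at 4 h and 117, 109 and 118 at 24 h. The 2 h and 4 h libraries lay above all DMSO libraries and the 24 h libraries below them. Its values were 0.18 ± 0.06 at 2 h (edgeR adjusted p = 0.29, 0.00815 with the block) and 0.21 ± 0.06 at 4 h (0.154, 0.00221 with the block). The time course called it without the block (adjusted p = 0.0166), a call lost without replicate 2, 3 or 4 (0.105, 0.469 and 0.172).

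At the sterol end, MSMO1 (ENSG00000052802, chr4:165327667-165343164, plus strand), a monooxygenase of the methyl removal steps, rose most. Its levels were 27.2, 31.1, 33.9 and 26.8 CPM in DMSO, 32.3, 30.4, 29.3 and 28.1 at 0.5 h, 35.7, 36.1, 33.4 and 37.7 at 1 h, 41, 42.2, 39.4 and 38.8 at 2 h, 41.7, 39.9, 42.4 and 36.7 at 4 h and 28.8, 29.5 and 25.8 at 24 h. All 2 h and 4 h libraries exceeded all DMSO libraries, and the 24 h libraries overlapped DMSO. The log2 fold change was 0.26 ± 0.07 at 1 h (edgeR adjusted p = 0.12, 0.0564 with the block), 0.43 ± 0.07 at 2 h (0.00222) and 0.43 ± 0.07 at 4 h (0.00283). The calls at 2 h and 4 h held without each replicate in turn. The time-course call (adjusted p = 0.00182) did not hold without replicate 2 (0.104).

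DHCR7 (ENSG00000172893, chr11:71428193-71452868, minus strand), the reductase that makes cholesterol in the last step of its branch, was lower at 0.5 h with the block and rose later. It measured 56.6, 60.2, 56.7 and 58.2 CPM in DMSO, 45.8, 56.5, 49.5 and 49.1 at 0.5 h, 63.1, 65.9, 62.1 and 61.3 at 1 h, 73.8, 78.4, 75.5 and 65.8 at 2 h, 71.5, 80.5, 70.9 and 72.2 at 4 h and 63, 54.5 and 58.6 at 24 h. Every 0.5 h library was below every DMSO library, the nearest by under 1 CPM, and every library at 1, 2 and 4 h was above them. DHCR7 gave -0.20 ± 0.06 at 0.5 h (edgeR adjusted p = 0.27, 0.0207 with the block), 0.34 ± 0.06 at 2 h (0.00932) and 0.35 ± 0.06 at 4 h (0.00677). From 0.5 h to 4 h it rose by 0.55 ± 0.06 (0.000112). Without replicate 3 the 2 h and 4 h calls were lost (0.26 and 0.146).

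CYP51A1 (ENSG00000001630, chr7:92084987-92134803, minus strand), the demethylase that acts on lanosterol, was called over the time course only just. It had 36.3, 35.1, 33.8 and 30.8 CPM in DMSO, 34.1, 35.7, 31.9 and 32.3 at 0.5 h, 35, 35.6, 35.2 and 33.4 at 1 h, 41.3, 42.1, 37.5 and 40.2 at 2 h, 41.4, 45.7, 38 and 34.9 at 4 h and 34.9, 31.6 and 30.8 at 24 h. The 2 h libraries were all above DMSO, while at 4 h replicate 4 fell within the DMSO range. Its F-test gave an edgeR adjusted p of 0.0961, which rose to between 0.293 and 0.629 without any replicate in turn and to 0.153 without the 4 h library of replicate 1. With the block it was 0.24 ± 0.05 at 2 h (0.00661) and 0.23 ± 0.05 at 4 h (0.0156). An unnamed gene on the same strand overlaps 45.5% of CYP51A1, so reads there may be shared.

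Of the remaining sterol genes, SC5D, the desaturase gene, averaged 126 ± 7.56 CPM in DMSO and 148 ± 9.56 at 4 h (SD, n = 4), with every 4 h library above every DMSO library. Its 4 h contrast was 0.23 ± 0.06 without the block (edgeR adjusted p = 0.12) and 0.24 ± 0.04 with it (0.000646). HSD17B7, a reductase gene of the methyl removal steps, had 0.34 ± 0.12 at 2 h (edgeR adjusted p = 0.411, 0.0493 with the block) and 0.29 ± 0.12 at 4 h (0.566, 0.0945 with the block). The other 4 were not called in any contrast by either fit. At 4 h NSDHL, which acts beside HSD17B7, had 0.08 ± 0.10, the isomerase gene EBP 0.11 ± 0.12, and the sterol reductase genes TM7SF2 and LBR, the latter also a lamin B receptor, -0.05 ± 0.06 and -0.02 ± 0.06. An unnamed gene on the same strand covers 99.9% of EBP, so its count is uncertain.

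**Figure D3:**
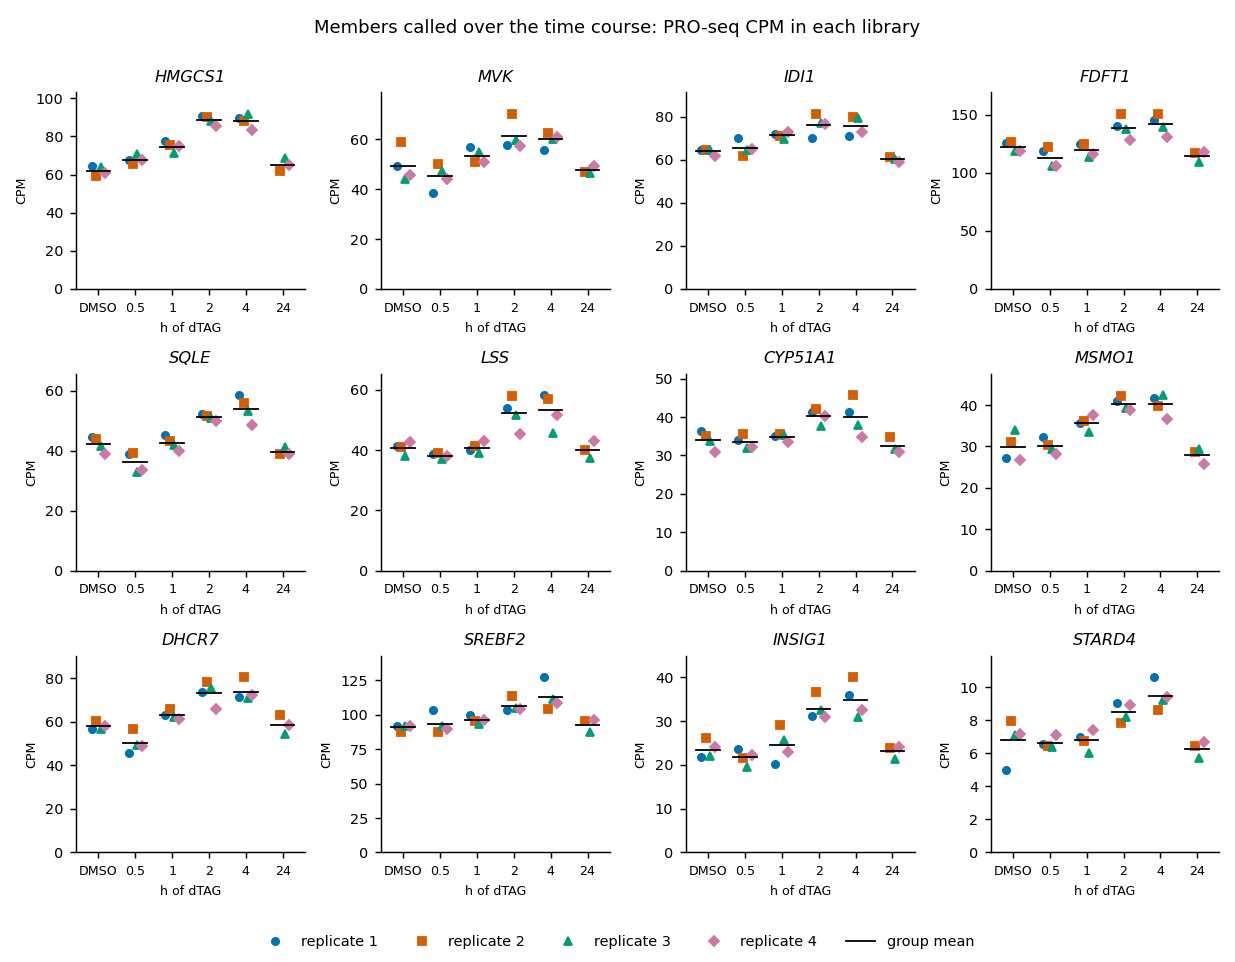
PRO-seq CPM of the 12 members called over the time course in each of 23 libraries, by h of dTAG, with symbols for the replicate and black bars for group means; axes start at 0. HMGCS1 was above its DMSO range from 0.5 to 4 h. SQLE, DHCR7, LSS, FDFT1, INSIG1 and MVK had their lowest means at 0.5 h. At 24 h all but IDI1 and FDFT1 overlapped their DMSO range.

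SREBF2 (ENSG00000198911, chr22:41833105-41907306, plus strand) encodes SREBP2, the activator of the pathway. It measured 92.2, 87.2, 92 and 91.9 CPM in DMSO, 103, 87.5, 91.9 and 89.4 at 0.5 h, 99.8, 95.6, 93.1 and 96 at 1 h, 103, 114, 105 and 104 at 2 h, 128, 104, 112 and 109 at 4 h and 95.2, 87.3 and 96.3 at 24 h. Every library at 1, 2 and 4 h lay above every DMSO library, with 4 h replicate 1 the highest. The rise was 0.23 ± 0.06 at 2 h (edgeR adjusted p = 0.0987) and 0.31 ± 0.06 at 4 h (0.00918), and without the 4 h library of replicate 1 it was 0.25 at 4 h (0.0388). Its 2 h call was lost without replicate 2, 3 or 4 (0.632, 0.57 and 0.628), and its 4 h call without replicate 3 or 4 (0.203 and 0.179).

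INSIG1 (ENSG00000186480, chr7:155297776-155310235, plus strand), the sterol-dependent anchor that holds SCAP in the endoplasmic reticulum and is itself an SREBP target, had the largest fold change of the 33 at 4 h. Its levels were 21.8, 26.1, 22.1 and 24.1 CPM in DMSO, 23.7, 21.6, 19.5 and 22.4 at 0.5 h, 20.2, 29.1, 25.8 and 22.9 at 1 h, 31.1, 36.6, 32.5 and 30.9 at 2 h, 35.9, 40.1, 30.9 and 32.7 at 4 h and 23.9, 21.5 and 24.1 at 24 h. The 2 h and 4 h libraries were all above DMSO, and the 0.5, 1 and 24 h libraries overlapped DMSO. INSIG1 rose by 0.48 ± 0.10 at 2 h (edgeR adjusted p = 0.0219) and 0.57 ± 0.10 at 4 h (0.00533), with -0.02 ± 0.11 at 24 h (1). The 2 h call was lost without replicate 3 or 4 (0.299 and 0.27) and the 4 h call without replicate 4 (0.112).

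The other genes of SREBP2 control were not called in any contrast by either fit. INSIG2, the second anchor gene, averaged 15.2 ± 1.89 CPM in DMSO and 17.2 ± 1.79 at 4 h (SD, n = 4), a log2 fold change of 0.16 ± 0.12 (edgeR adjusted p = 0.9). SCAP averaged 42 ± 2.46 CPM in DMSO and 37.4 ± 0.847 at 0.5 h, with all 0.5 h libraries below all DMSO libraries, a log2 fold change of -0.17 ± 0.05 (0.262, 0.152 with the block). By 4 h the value for SCAP was -0.02 ± 0.05 (1).

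Among the genes of uptake, transport and storage, STARD4 (ENSG00000164211, chr5:111496033-111512590, minus strand), a cytosolic sterol carrier, was the only call against DMSO. It had 4.98, 7.96, 7.09 and 7.16 CPM in DMSO, 6.55, 6.46, 6.4 and 7.08 at 0.5 h, 7.01, 6.76, 6 and 7.39 at 1 h, 9.03, 7.83, 8.21 and 8.93 at 2 h, 10.6, 8.6, 9.24 and 9.43 at 4 h and 6.42, 5.7 and 6.71 at 24 h. All 4 h libraries were above all DMSO libraries. Replicate 1 was the lowest library in DMSO and the highest at 4 h. The 4 h rise was 0.46 ± 0.11 (edgeR adjusted p = 0.0712). Without replicate 1 the value was 0.30, below those of MSMO1, DHCR7, SQLE and LSS in the same fit. The call was lost without replicate 1, 2, 3 or 4 (adjusted p = 0.435, 0.141, 0.464 and 0.439), without the 4 h library of replicate 1 alone (0.172) and by DESeq2 (0.163). Over the time course its mean log2 fold change was 0.18 (edgeR adjusted p = 0.0607), and 0.05 without replicate 1 (0.167); the call was also lost without replicate 2, 3 or 4 (0.259, 0.743 and 0.626) and without the 4 h library of replicate 1 (0.113). STARD4 averaged 76.9 counts per library.

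NPC1, which exports cholesterol from the lysosome, averaged 69.1 ± 1.84 CPM in DMSO, 62.4 ± 5.93 at 0.5 h and 74.7 ± 2.25 at 4 h (SD, n = 4). It rose from 0.5 h to 4 h by 0.26 ± 0.06 (edgeR adjusted p = 0.0665), a call lost without any replicate in turn (0.152 to 0.448) and without the 4 h library of replicate 1 (0.102). Against DMSO NPC1 had -0.14 ± 0.06 at 0.5 h (0.552) and 0.11 ± 0.06 at 4 h (0.752). TMEM97, an NPC1-binding protein gene, and SOAT1, which esterifies cholesterol for storage, were not called in any contrast by either fit. At 4 h TMEM97 had 0.16 ± 0.12 (0.936) and SOAT1 -0.09 ± 0.07 (0.955).

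Of the 5 LXR and efflux genes, edgeR called 0 in any contrast without the block. Between 0.453% and 1.33% of all genes were called in these contrasts, so 0 of 5 lies near the background share. Against DMSO, ABCG1 alone had an unadjusted p under 0.05. ABCG1, which exports cholesterol to lipoprotein particles, measured 19.1, 17.4, 18.1 and 16.4 CPM in DMSO, 15.9, 15.7, 16 and 15.1 at 0.5 h, 12.5, 15.2, 15.3 and 14.4 at 1 h, 12.3, 13.6, 14.4 and 12.2 at 2 h, 18.9, 10.8, 11.3 and 14 at 4 h and 19, 17.2 and 18.9 at 24 h. Every library at 0.5, 1 and 2 h was below every DMSO library, whereas at 4 h replicate 1 stood inside the DMSO range and the others below it. Its values were -0.43 ± 0.12 at 2 h (edgeR adjusted p = 0.129) and -0.41 ± 0.12 at 4 h (0.178). With the block they were -0.43 ± 0.11 (0.0454) and -0.44 ± 0.11 (0.0465), and DESeq2 called ABCG1 at both times. Without the 4 h library of replicate 1, edgeR called ABCG1 at 2 h and at 4 h with no block. From 4 h to 24 h it rose with the block by 0.51 ± 0.12 (0.0331).

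ABCA1, the other efflux transporter gene, was sparsely covered, with a mean of 29.2 counts per library and levels of 2.42, 3.15, 3.08 and 2.62 CPM in DMSO, 1.59, 2.12, 3.05 and 2.9 at 4 h and 4.28, 3.48 and 3.02 at 24 h. These groups overlapped, and the contrast gave -0.16 ± 0.18 at 4 h (edgeR adjusted p = 1) and 0.33 ± 0.18 at 24 h (0.799). The LXR genes NR1H3 and NR1H2 had 0.04 ± 0.06 and -0.02 ± 0.06 at 4 h, and MYLIP, an LXR target that marks lipoprotein receptors for degradation, had 0.05 ± 0.08. Neither fit called ABCA1, NR1H2, NR1H3 or MYLIP in any contrast.

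**Figure D4:**
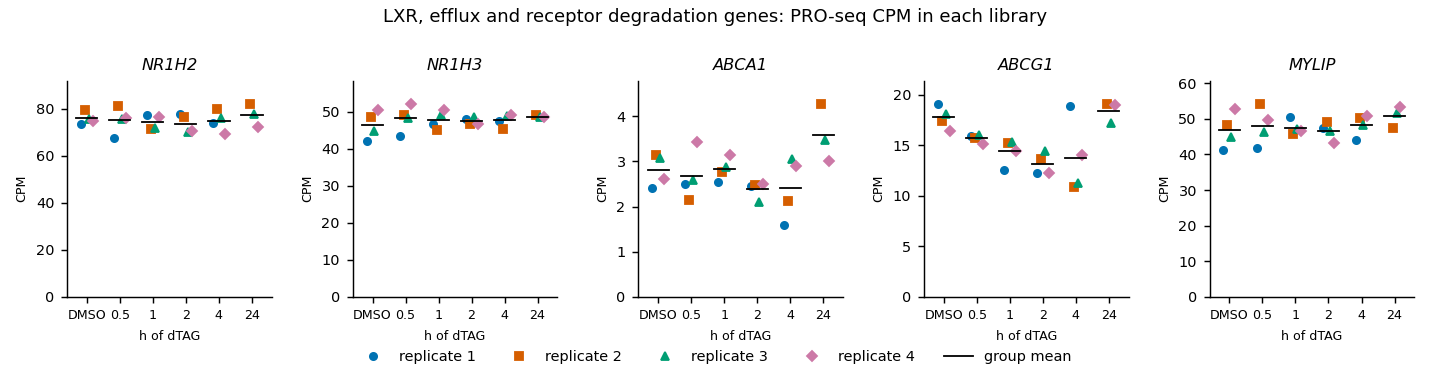
PRO-seq CPM of the 5 LXR and efflux genes in each of 23 libraries, by h of dTAG, with symbols for the replicate and black bars for group means; axes start at 0. ABCG1 was below its DMSO range at 0.5, 1 and 2 h, while NR1H2, NR1H3 and MYLIP overlapped DMSO throughout.

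At 24 h the members that had risen were set against both ends of the course. The falls from 4 h use the same 4 h libraries as the rises, so a value high by chance at 4 h would favour both. From 4 h to 24 h the falls were -0.59 ± 0.11 for INSIG1 (edgeR adjusted p = 0.015), -0.58 ± 0.12 for STARD4 (0.036), -0.52 ± 0.08 for MSMO1 (0.00244), -0.44 ± 0.05 for HMGCS1 (0.000192) and -0.44 ± 0.07 for SQLE (0.00403). LSS, IDI1, DHCR7, FDFT1 and SREBF2 also fell, by log2 values of -0.40, -0.33, -0.33, -0.31 and -0.28. FDFT1 had not been called against DMSO without the block at any time. Against DMSO at 24 h, the 9 members that had been called earlier lay between -0.12 for STARD4 and 0.07 for HMGCS1. A missed threshold at 24 h does not show that these levels equal those in DMSO. Without replicate 2, 3 or 4 the fall from 4 h was called for 2, 1 and 3 members instead of 10, and HMGCS1 was among them each time (adjusted p = 0.0505, 0.0201 and 0.0383). In a fit of only the 4 h and 24 h libraries, 0 of the 10 calls were kept.

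In 43 further genes, of which 42 were tested, edgeR called 2 in any contrast without the block and 9 with it. A single contrast called 0.453% to 1.33% of all genes without the block and 1.77% to 4.6% with it. The share of all genes called in any contrast was not computed, so the counts of 2 and 9 have no background beside them. GRAMD1A, a carrier of sterol from plasma membrane to endoplasmic reticulum, averaged 31 ± 2.71 CPM in DMSO and 25.5 ± 3.27 at 1 h (SD, n = 4). It fell by 0.28 ± 0.07 on the log2 scale (edgeR adjusted p = 0.0836), in a contrast that called 1.25% of all genes. Its relative GRAMD1C averaged 33.7 ± 1.56 CPM at 0.5 h and 40.1 ± 1.16 at 4 h and rose by 0.25 ± 0.06 (0.0757), where 0.871% of all genes were called. At 4 h against DMSO, 0 of 42 were called without the block, against 0.833% of all genes. By edgeR 4 had an unadjusted p under 0.05, and DESeq2 called 1, FAF2, both without a share of all genes to set beside them. With the block, FAF2 (0.13 ± 0.03, edgeR adjusted p = 0.0431) and ERG28 (0.17 ± 0.05, 0.0906) were called higher, where 2.49% of all genes were called in either direction. The median log2 fold change at 4 h was 0.05 for these 42, 0.16 for the 33 members and 0.01 for all genes.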

How the data were processed

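PRO-seq read counts from 23 T47D Clone 28 libraries were analysed. Per the study's methods and the submitters' processing notes, reads were trimmed with cutadapt 1.8.1, deduplicated by molecular identifier, cleared of ribosomal DNA reads, aligned to hg38 with Bowtie2 2.4.4 and counted in genes with bedtools, with SAMtools 1.9 for sorting. The values the authors deposited are raw counts per gene, with no normalization. The annotation and the use of strand were not given in the sources used here. Nested genes on the opposite strand had a median density of 0.0459 of their host's (1271 genes), against 0.991 on the same strand (488 genes), so strands were counted apart and reads in same-strand overlaps can be shared.

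Counts were fitted in R 4.3.3 with edgeR 4.0.16 (glmQLFit, glmQLFTest; two-sided), TMM scaling and filterByExpr (minimum count 10, minimum total 15). All 23 libraries shared a fit for contrasts, and 20 entered the time-course F-test. Benjamini-Hochberg adjustment ran across every kept gene, with a threshold of 0.1, the study's. Each standard error is a log2 fold change over the square root of its F, and scripts were tested on simulated data. Group means and spans are from CPM and GENCODE release 44, which matched 60463 identifiers.

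The labels say that replicates were treated and collected at different times within a day, so a replicate number marks a shared harvest. Across genes, departures from group means had a mean Pearson r of 0.287 for libraries of equal number (55 pairs, lowest -0.0596) and -0.0825 for unequal numbers (165 pairs). The numbers were therefore taken to pair the libraries. Without the block, p-values measure the spread between harvests of a single clone. With it, they measure the spread left once differences between harvests are removed. Alternatives were the replicate block, DESeq2 1.42.0, median-of-ratios and total-count scaling, no filter, only the groups compared, and leaving out each replicate or the 4 h library of replicate 1, the last chosen after seeing the data. All but the replicate block were fitted without it, and so ignored the pairing. The share of all genes called in the fits that leave out libraries was not computed.

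All 33 members are accounted for, with every library's value for those called without the block against DMSO or over the time course. Members, role lists and further pathway genes were chosen with earlier results of these data known. Some results of the further pathway genes are not reported here.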

Additional observations from a re-analysis of the deposited data

Results flagged for a closer look

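In 10 of 165 groups of 4 libraries, a library lay far from the other 3 by Dixon's ratio at the 95% level, which chance gives in about 1 in 20 groups. In DMSO these were IDI1 in replicate 4 (61.8 CPM against 64.4 to 64.8), GGPS1 in replicate 1 (94.1 against 101 to 102) and SREBF2 in replicate 2 (87.2 against 91.9 to 92.2). At 1 h SCAP stood apart in replicate 4 (41.2 CPM against 38.9 to 39.1). At 2 h SREBF2 did so in replicate 2 (114 CPM against 103 to 105) and ABCA1 in replicate 3 (2.11 against 2.45 to 2.5). At 4 h the libraries were LBR in replicate 1 (59 CPM against 52.4 to 53), HSD17B7 in replicate 1 (14.3 against 21.3 to 22.6), DHCR7 in replicate 2 (80.5 against 70.9 to 72.2) and SCAP in replicate 2 (37.2 against 42.2 to 43.2).

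The change against DMSO differed between 0.5 h and 4 h for 12 members, tested as the 4 h against 0.5 h contrast in edgeR with no block. The log2 differences were 0.38 for HMGCS1 (adjusted p = 0.000112), 0.41 for MVK (0.0366), 0.22 for IDI1 (0.0495), 0.33 for FDFT1 (0.0112), 0.58 for SQLE (9.58e-05) and 0.47 for LSS (0.00278). They were 0.42 for MSMO1 (0.00584), 0.55 for DHCR7 (0.000112), 0.28 for SREBF2 (0.0365), 0.68 for INSIG1 (0.00178), 0.50 for STARD4 (0.0482) and 0.26 for NPC1 (0.0665).

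Between 4 h and 24 h the change differed for 10 members. The log2 differences, 24 h minus 4 h, were -0.44 for HMGCS1 (edgeR adjusted p = 0.000192), -0.33 for IDI1 (0.0041), -0.31 for FDFT1 (0.0425), -0.44 for SQLE (0.00403) and -0.40 for LSS (0.0281). They were -0.52 for MSMO1 (0.00244), -0.33 for DHCR7 (0.0392), -0.28 for SREBF2 (0.068), -0.59 for INSIG1 (0.015) and -0.58 for STARD4 (0.036).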

How the results depend on the processing

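Of 52 calls of a member in a contrast or over the time course, 0 changed direction under the alternatives run. The calls kept were 52 with the replicate block, 50 with median-of-ratios scaling, 39 with no low-count filter, 29 with total counts only and 21 with only the groups compared. DESeq2 kept 50 and lost 1, STARD4 at 4 h, and gave no adjusted p for STARD4 from 0.5 h to 4 h. With the replicate block, the number of members called became 2 after 0.5 h, 3 after 1 h, 15 after 2 h and 16 after 4 h, and 16 from 4 h to 24 h, and no call made without the block was lost. DESeq2 called 1 at 0.5 h. Total counts only gave 5 at 4 h, 7 from 0.5 h to 4 h, 3 from 4 h to 24 h and 7 over the time course. With no filter, 6 were called from 4 h to 24 h. With only the groups compared, the counts were 4 at 2 h, 2 at 4 h, 2 from 0.5 h to 4 h and 0 from 4 h to 24 h; the fits then held fewer libraries. Leaving out each replicate in turn gave 0 to 2 members at 1 h, 2 to 7 at 2 h and 4 to 8 at 4 h, then 5 to 9 from 0.5 h to 4 h, 1 to 9 from 4 h to 24 h and 5 to 11 over the time course, and 0 at 0.5 h and 24 h. Without the 4 h library of replicate 1 the counts were 10 at 4 h, 12 from 0.5 h, 10 to 24 h and 13 over the time course.

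The median log2 fold change of the sterol end ranged from -0.04 to 0.00 at 0.5 h, from 0.17 to 0.24 at 2 h and from 0.17 to 0.24 at 4 h without each replicate in turn, and that of LXR and efflux from -0.02 to 0.02 at 0.5 h. The squalene median at 1 h was -0.02 with total counts only. The cause of each difference was not tested. Depth limits STARD4 and ABCA1, with means of 76.9 and 29.2 counts per library.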
